A study of Mus musculus with 15 samples.

Results

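The genes described here mark the glia that lie around spinal motor neurons: astrocytes, oligodendrocyte precursors and myelinating oligodendrocytes. They are 30 symbols taken by name from the 36144 genes of the deposited table, in 3 classes: 14 astrocyte genes, 5 precursor genes and 11 myelin genes. All 30 were found, each was above 0 in all 15 libraries, and all 30 passed the filter on low values (at least 1 TPM in at least 3 libraries). TPM is a gene's share of all transcripts in a library, corrected for transcript length and scaled so that every library has the same total, so levels may be compared between genes. The libraries came from lumbar (L1 to L3) motor neurons of mouse pups at postnatal day 6, labelled with cholera toxin subunit B, a tracer carried back along axons, and cut out by laser-capture microdissection. The values are thus levels in material cut out around labelled motor neurons, and which cells each transcript came from was not measured.

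There were 5 groups of 3 libraries, which the submitters call biological replicates. All mice were on an FVB background, carried the human SMN2 and SMNΔ7 transgenes, and came from both sexes in equal proportions. WT mice were littermates with the genotype Smn+/+;SMN2;SMNΔ7, and SMA mice were Smn-/-;SMN2;SMNΔ7, a severe model of spinal muscular atrophy that lacks the mouse gene. Both received vehicle. The other groups were SMA mice injected intraperitoneally each day from postnatal day 0. SMA+MW150 received 5 mg/kg of MW150, an inhibitor of the stress kinase p38α, and SMA+Pifithrin-alpha received 2.2 mg/kg of Pifithrin-alpha, an inhibitor of p53. SMA+SMN-C3 received 3 mg/kg of SMN-C3, which modifies SMN2 splicing so that more full-length protein is made. Whether a library held 1 animal or several is not given in the sources used here. Libraries are named by group and replicate, and values are listed in the order of replicates 1, 2 and 3.

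Astrocytes take up glutamate and potassium around synapses and neuronal cell bodies and are joined to each other by gap junctions. Oligodendrocyte precursors carry the receptor for platelet-derived growth factor. They mature into cells that wrap axons in myelin, and this wave of myelination is under way in the mouse spinal cord in the first postnatal week. Sox10, with the Olig proteins, drives that maturation and switches on Myrf, which in turn activates the genes of compact myelin. In bulk libraries such as these, fewer cells of a type and less RNA per cell cannot be told apart.

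Because Sox10 binds promoters and enhancers of myelin genes, the stretches in front of the members' start sites were searched for the core letters bound by SOX proteins. RefSeq windows (build GRCm38.p6, 250 bases before to 50 bases after the start) were on hand for 22 of the 30 members. The letters ACAAAG, on either strand, occurred in 18.7% of 32851 windows of that length. They occurred in the windows of 3 of the 7 myelin genes that had one (Mag, Cnp and Mobp), in 0 of 12 astrocyte genes and in 0 of 3 precursor genes. The 3 matching windows are shown here up to the first annotated exon. They were picked after the search, and the capitals mark ACAAAG or its reverse complement CTTTGT, and the E-box CANNTG bound by Olig proteins. The Mag window is chr7:30914874-30915113 on the minus strand, the Cnp window chr11:100574689-100574903 on the plus strand, and the Mobp window chr9:120149492-120149706 on the plus strand.
Mag: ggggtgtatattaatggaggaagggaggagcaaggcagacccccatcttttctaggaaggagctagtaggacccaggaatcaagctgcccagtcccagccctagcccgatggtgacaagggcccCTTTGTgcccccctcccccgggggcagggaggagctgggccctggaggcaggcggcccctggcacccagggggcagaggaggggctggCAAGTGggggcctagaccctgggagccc
Cnp: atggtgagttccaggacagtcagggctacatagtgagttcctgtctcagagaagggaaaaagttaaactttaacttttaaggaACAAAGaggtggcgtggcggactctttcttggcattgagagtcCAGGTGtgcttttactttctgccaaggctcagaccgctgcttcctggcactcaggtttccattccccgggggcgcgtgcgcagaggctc
Mobp: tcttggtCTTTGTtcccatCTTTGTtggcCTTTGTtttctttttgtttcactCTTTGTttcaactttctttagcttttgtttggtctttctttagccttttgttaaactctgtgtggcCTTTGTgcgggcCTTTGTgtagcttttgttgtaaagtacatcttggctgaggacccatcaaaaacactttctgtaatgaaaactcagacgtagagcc
The Mobp window held 6 SOX matches, and those of Mag and Cnp held 1 each. The E-box was present in 72.3% of all windows, in 11 of 12 astrocyte genes, 1 of 3 precursor genes and 3 of 7 myelin genes. The longer palindrome read by NFI factors was in 0.0365% of windows and in none of the members' windows. A match to such letters describes the sequence and does not show that a factor was bound.

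The libraries were first checked against their labels. Smn1 averaged 16.3 ± 7.18 TPM in WT (SD, n = 3) and at most 0.638 TPM in the means of the 4 groups lacking the mouse gene. Chat, the acetylcholine-synthesising enzyme of motor neurons, lay between 36.6 and 132.7 TPM in all 15 libraries, and Isl1, a motor neuron transcription factor, between 19.0 and 212.1 TPM. Cdkn1a, a p53 target, averaged 42.7 TPM in WT against 1054 TPM in SMA. The share of TPM from genes of the mitochondrial genome was highest in WT 1 (21.9%), SMA+Pifithrin-alpha 3 (20.4%), SMA+Pifithrin-alpha 2 (12.6%) and SMA+SMN-C3 1 (11.3%), while the remaining 11 libraries lay between 3.76% and 7.55%. Markers of Schwann cells, the myelinating cells of peripheral nerve, summed to 41.0 TPM in SMA 2 and 29.8 TPM in SMA+MW150 1, against at most 9.65 TPM elsewhere. Several of the results below, though not all, are also given without some of these libraries.

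The 30 glial genes made up a small share of each library. The 14 astrocyte genes together made up 0.155% to 0.371% of all TPM, the 11 myelin genes 0.0335% to 0.516%, and the 5 precursor genes 0.0035% to 0.0258%. The 12 motor neuron markers summed to between 11673 and 19582 TPM in every library, more than all 30 glial genes together in each of them. These sums leave out other glial genes. The 24 other astrocyte genes described below summed to 17326 TPM in SMA 2 and 14402 TPM in SMA+MW150 3. That was more than the motor neuron markers in these libraries (11673 and 13327 TPM), and in every other library it was less. Among the members, the highest mean levels belonged to Aldoc, a glycolytic enzyme, at 1106 TPM, Mbp, the myelin basic protein, at 970 TPM, and Fabp7, a fatty acid carrier of immature astroglia, at 709.5 TPM. The lowest was Myrf at 2.05 TPM. Of the 30 genes, 27 were at or above 1 TPM in every library, and Gjb6, Fa2h and Myrf were not.

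**Figure D1:**
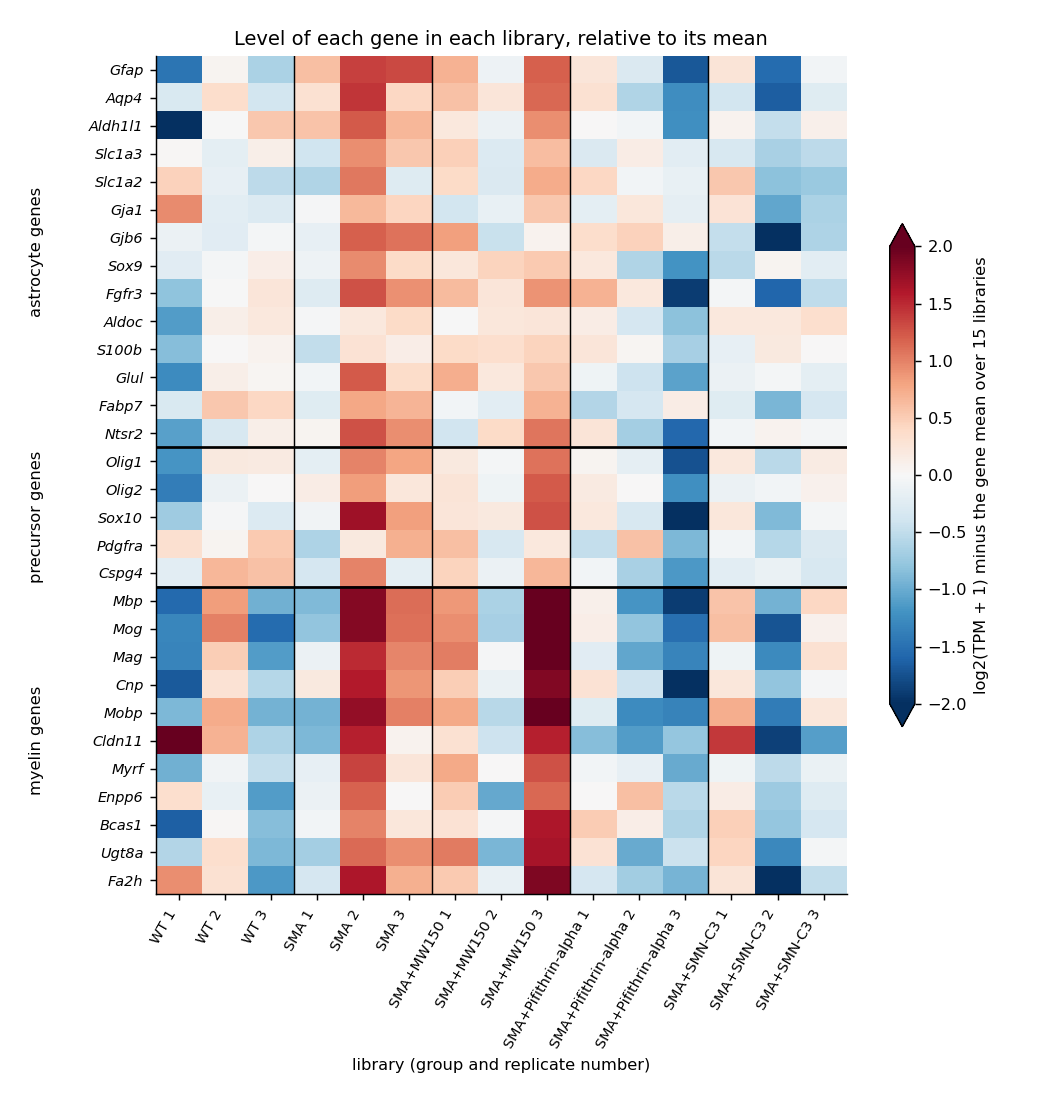
Levels of the 30 genes (rows, by class) in the 15 libraries (columns, by group), as log2(TPM + 1) minus the mean of that gene over all libraries, with colours saturating at 2 log2 units either way. SMA 2 and SMA+MW150 3 are red over most rows, and SMA+Pifithrin-alpha 3, SMA+SMN-C3 2 and WT 1 are blue over most rows.

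A few libraries set the extremes of nearly every member, as the map of gene levels shows. SMA 2 was the highest library for 15 members, 11 of them astrocyte genes, and SMA+MW150 3 for 11, 8 of them myelin genes. SMA+Pifithrin-alpha 3 and SMA+SMN-C3 2 were each the lowest library for 11 members, and WT 1 for 7 members. SMA 1 and SMA+MW150 2, from the same groups as the high libraries, stood at neither end for any gene. Aldoc and Pdgfra were highest in SMA 3, and Enpp6 was lowest in WT 3. Gja1, the gap junction protein connexin 43, and Cldn11, the tight junction protein of the myelin sheath, were highest in WT 1, the lowest library for 7 other members.

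Replicates of the same group differed widely, and in SMA, SMA+MW150, WT and SMA+SMN-C3 the myelin class had the largest range of the 3 classes. Under Pifithrin-alpha it was the precursor class, with a 2.74-fold range against 2.15-fold for myelin genes. The mean log2(TPM + 1) of the 11 myelin genes corresponded to a 3.78-fold range among the 3 SMA libraries, a 4.86-fold range among the 3 SMA+MW150 libraries and an 8.51-fold range over all 15. For the astrocyte genes the range over all libraries was 3.54-fold, for the precursor genes 5.35-fold and for the motor neuron markers 1.92-fold. The residual SD of a gene within groups had a median of 0.94 log2 units among the myelin genes, larger than that of 96.5% of all tested genes. It was 0.56 for the astrocyte genes, 0.60 for the precursor genes, 0.41 for the motor neuron markers and 0.49 over all tested genes. The class means of log2(TPM + 1) in WT and SMA were 5.54 ± 0.35 and 6.24 ± 0.53 for astrocyte, 3.74 ± 0.47 and 4.23 ± 0.58 for precursor, and 4.50 ± 0.70 and 5.45 ± 0.96 for myelin genes (SD, n = 3). Those under MW150, Pifithrin-alpha and SMN-C3 were 6.08 ± 0.33, 5.45 ± 0.49 and 5.39 ± 0.34 for astrocyte genes. For myelin genes they were 5.59 ± 1.14, 4.27 ± 0.55 and 4.57 ± 0.84, and for precursor genes 4.21 ± 0.48, 3.29 ± 0.81 and 3.66 ± 0.24. Group membership accounted for a median of 39.0% of the variance of a member, against 34.2% for a tested gene. By class the median was 45.6% for astrocyte, 38.6% for precursor and 33.6% for myelin genes, the last below that of a tested gene. Some share of this kind arises even where groups do not differ.

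**Figure D2:**
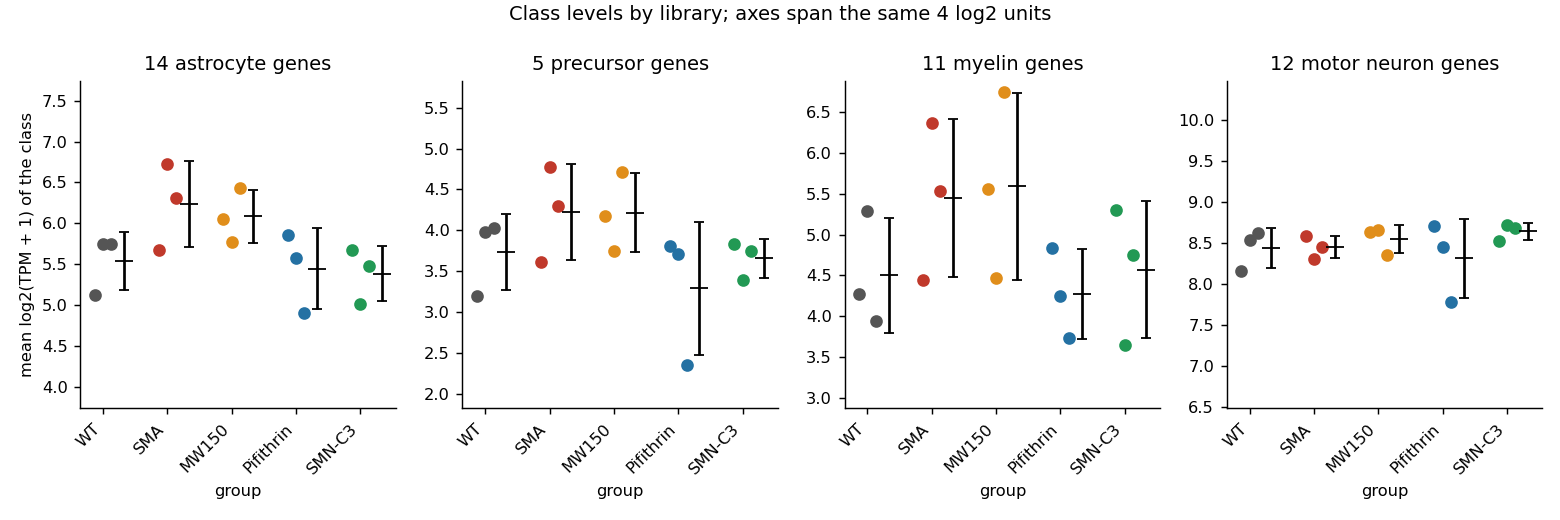
Mean log2(TPM + 1) of each class and of 12 motor neuron markers (vertical axes, each spanning 4 log2 units) in the 5 groups (MW150, Pifithrin and SMN-C3 stand for SMA mice given that agent). Points are libraries in the order of replicates 1, 2 and 3, and the bar beside them is the group mean with its SD (n = 3). The myelin means range from 4.44 to 6.36 within SMA alone, while the motor neuron means stay between 7.78 and 8.72 in all libraries.

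The first comparison asked how glial RNA differed between SMA and WT. Every one of the 14 astrocyte genes had a higher fitted mean in SMA, with log2 differences from 0.14 to 1.78 and a median of 0.64. Among the myelin genes 10 of 11 were higher, with a median of 0.98, and among the precursor genes 3 of 5, with a median of 0.80. With the mitochondrial share as a covariate the precursor median was 0.23, beside 0.02 for all tested genes under that setting. Without the covariate, the median over all 15425 tested genes was itself 0.24, and 10262 of them were positive. With limma and Benjamini-Hochberg adjustment over all genes, 0 of the 30 members passed an adjusted p of 0.05, where 0.363% of all tested genes did. At an unadjusted p under 0.05 there were 8 members, all higher in SMA (4 astrocyte and 4 myelin genes), beside 10.6% of tested genes in that direction. That count was 1 without WT 1 or without SMA 2, 5 without SMA 3, 12 without WT 2 and 16 without SMA 1. Without both libraries with Schwann cell genes (SMA 2 and SMA+MW150 1) it was 1, and without both with the most mitochondrial RNA (WT 1 and SMA+Pifithrin-alpha 3) it was 2. It was 5 after median-of-ratios scaling and 1 with the mitochondrial share as a covariate. The median of all tested genes moved too, to 0.12 without WT 1 and to 0.34 without WT 3. In this and the later comparisons, the share of tested genes at that p under each alternative was not computed. Such changes in count therefore cannot be read as particular to the members.

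Gfap, the intermediate filament of astrocytes that accumulates when they react to injury, had the lowest p of the members. It measured 18.6, 54.8 and 33.7 TPM in WT and 81.0, 138.4 and 133.2 TPM in SMA. All 3 SMA libraries lay above all 3 WT libraries. The group means, 35.7 ± 18.2 and 117.5 ± 31.7 TPM (SD, n = 3), stood 3.29-fold apart, a fitted log2 difference of 1.78 ± 0.54 (SE; limma, unadjusted p = 0.00412, adjusted p = 0.213). The gene lies at chr11:102887336-102900912 on the minus strand (GRCm38), overlapped on the other strand by the model Gm26668. Aldh1l1, a folate enzyme widely used to mark astrocytes (chr6:90486427-90600203), likewise did not overlap, with 1.48, 12.6 and 18.9 TPM in WT against 19.2, 30.7 and 20.5 TPM in SMA. Its log2 difference of 1.45 was 0.55 without WT 1. Gm45901 and Gm44236 overlap it on the same strand in the annotation, so its value is uncertain. Same-strand overlaps are also annotated for Slc1a3 (Gm37310), Glul (Mir8114), Pdgfra (Mir7025) and Mobp (Gm38642). The third member whose groups did not overlap was Olig2, with 6.17, 16.2 and 17.8 TPM in WT and 19.7, 32.3 and 20.7 TPM in SMA. In all, 3 members were higher without overlap, beside 14.5% of tested genes, a larger share than that of the members.

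Other astrocyte genes with an unadjusted p under 0.05 were Glul, the enzyme that makes glutamine from glutamate, and Ntsr2, an astrocytic neurotensin receptor. Glul averaged 48.2 ± 21.5 TPM in WT and 87.9 ± 41.6 TPM in SMA, and Ntsr2 37.6 ± 15.1 and 87.0 ± 34.0 TPM (SD, n = 3). The glutamate transporters were closer together, with log2 differences of 0.37 for Slc1a3 (GLAST) and 0.14 for Slc1a2 (GLT-1), and 95% intervals of -0.31 to 1.06 and -0.82 to 1.10. The same held for Gja1 (0.20), Fabp7 (0.18), S100b, a calcium-binding protein (0.24), Aldoc (0.45) and Sox9, a gliogenic transcription factor (0.45). Aqp4, the water channel of astrocytic endfeet, Gjb6 (connexin 30) and Fgfr3, a growth factor receptor of astroglia, had log2 differences of 0.82, 0.84 and 0.83. S100b overlaps Dip2a, Glul overlaps Teddm2 and Fgfr3 overlaps G630022F23Rik on the other strand, so their values may hold reads of both genes. When libraries were rescaled by the median of ratios, which took the median of all genes to 0.04, 10 of 14 astrocyte genes remained positive in place of 14.

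The myelin genes were spread widely on both sides. Mbp measured 231.0, 1210 and 347.9 TPM in WT and 367.8, 2411 and 1470 TPM in SMA, so the highest WT library lay far above the lowest SMA library. Its fitted difference was 1.25 with a 95% interval from -0.42 to 2.92. Cnp, the phosphodiesterase of non-compact myelin, had the largest difference of the class at 1.54 ± 0.63 (SE; limma, adjusted p = 0.339), with group means of 99.9 ± 63.1 and 272.6 ± 129.7 TPM (SD, n = 3). Its gene overlaps Dnajc7 on the other strand, and reads from transcribed bases that the 2 share cannot be told apart without strand information. Overlaps are given here for whole gene spans, and whether exons overlap was not examined. Mag, an adhesion protein of the membrane next to the axon (chr7:30899176-30914873), Bcas1, a marker of newly myelinating cells, and Myrf also had unadjusted p under 0.05, with log2 differences of 1.43, 1.21 and 0.98. Mog, on the outermost myelin surface, and Mobp, a small protein of compact myelin, differed by 1.33 and 0.97, Ugt8a and Fa2h, both enzymes of myelin galactolipids, by 0.85 and 0.64, and Enpp6, an early marker of differentiating oligodendrocytes, by 0.67. Cldn11 was the one myelin gene lower in SMA (-0.46). It measured 45.5, 17.5 and 6.45 TPM in WT and 5.12, 32.5 and 11.1 TPM in SMA, with the highest value in WT 1.

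The precursor genes gave both signs. Olig1, Olig2 and Sox10, transcription factors kept through the whole lineage, had log2 differences of 0.80, 0.90 and 1.15 in SMA over WT. Pdgfra and Cspg4 (NG2), membrane proteins lost as precursors mature, had -0.20 and -0.19. Sox10 measured 7.36, 12.5 and 10.4 TPM in WT and 12.1, 43.6 and 23.2 TPM in SMA, with 1 SMA library inside the WT range. Pdgfra measured 6.28, 5.01 and 7.31 TPM in WT and 2.78, 5.67 and 8.53 TPM in SMA. None of the 5 passed the test, and whether the 2 sets of genes differed from each other was not tested.

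**Figure D3:**
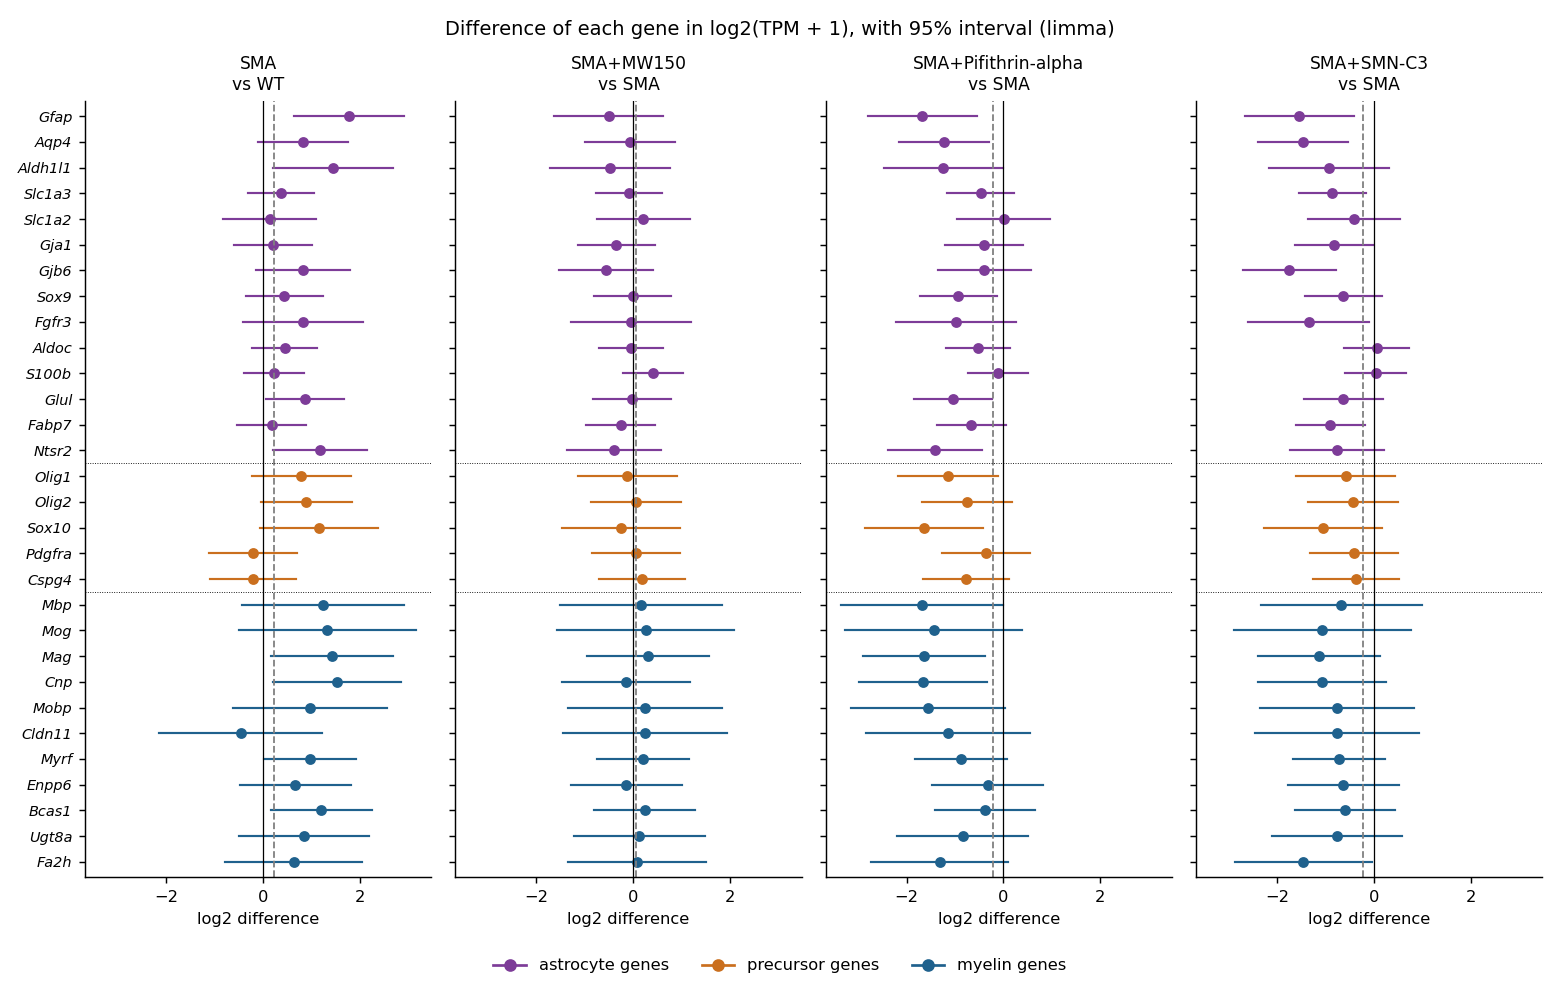
Fitted differences of log2(TPM + 1) for the 30 genes (points) with 95% intervals (lines) in SMA against WT and in each treated group against SMA. The dashed line marks the median of all 15425 tested genes and the dotted lines separate the classes. Most points lie right of 0 in SMA against WT and left of it under Pifithrin-alpha and SMN-C3, and around 0 under MW150.

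MW150 was compared with vehicle in SMA mice, and the glial genes of the 2 groups lay close together relative to their spread. Median log2 differences were -0.07 for astrocyte, 0.06 for precursor and 0.21 for myelin genes, against 0.06 for all tested genes. Limma called 0 of 30 members, where 0.00648% of tested genes were called, and 0 had an unadjusted p under 0.05, beside 1.51% of tested genes higher and 0.389% lower. The medians moved in both directions with the libraries used. With single libraries left out they ran from -0.48 to 0.09 for astrocyte, -0.32 to 0.30 for precursor and -0.48 to 0.70 for myelin genes, lowest without SMA 1 (astrocyte) or SMA+MW150 3 (precursor and myelin) and highest without SMA 2 (astrocyte) or SMA+MW150 2 (precursor and myelin). Without both SMA 2 and SMA+MW150 1, the median over the 30 members was 0.34 in place of -0.01, with 25 rather than 14 positive and 0 at an unadjusted p under 0.05. After median-of-ratios scaling the precursor median was -0.01. Only S100b did not overlap, with 481.5, 466.9 and 504.0 TPM under MW150 and 261.7, 452.1 and 405.9 TPM in SMA, beside 7.53% of tested genes higher without overlap. The log2 difference of S100b was 0.41 ± 0.29 (SE), and its 95% interval included 0. For most members the intervals were wide. That of Mbp ran from -1.51 to 1.83 log2 units, which spans a several-fold difference in either direction. Gfap measured 85.6, 49.3 and 121.7 TPM under MW150 (difference -0.51, interval -1.64 to 0.62).

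Under Pifithrin-alpha, 29 of 30 members had lower means than in vehicle-treated SMA mice, all but Slc1a2. The median log2 difference was -0.80 for astrocyte, -0.77 for precursor and -1.32 for myelin genes, and -0.22 over all tested genes, of which 10108 of 15425 were lower. Limma called 0 of 30 members at an adjusted p under 0.05, where 0.00648% of tested genes were called. There were 11 members lower at an unadjusted p under 0.05 (6 astrocyte, 2 precursor and 3 myelin genes), beside 7.55% of tested genes. There were 2 without SMA 2, 4 without SMA+Pifithrin-alpha 3, 16 without SMA+Pifithrin-alpha 1 and 18 without SMA 1. Leaving out both WT 1 and SMA+Pifithrin-alpha 3 gave 6, and leaving out both SMA 2 and SMA+MW150 1 gave 2. With the mitochondrial share as a covariate the count was 5. Lower means without overlap were seen for 6 members (Gfap, Aqp4, Aldh1l1, Glul, Mag and Fa2h), beside 9.76% of tested genes.

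Gfap measured 62.5, 43.2 and 15.7 TPM under Pifithrin-alpha, each below the lowest SMA library. Its mean was 2.91-fold lower than in SMA, a fitted difference of -1.68 ± 0.54 (SE; limma, unadjusted p = 0.00615, adjusted p = 0.461). Aqp4 measured 94.97, 50.5 and 32.0 TPM against 95.6, 209.4 and 102.5 TPM in SMA, so that the groups were separated by less than 1 TPM. Mag measured 48.1, 26.99 and 22.1 TPM against 51.9, 161.4 and 112.3 TPM, a 3.35-fold ratio of means. Mbp measured 726.9, 297.5 and 181.7 TPM, and its highest library lay above SMA 1. Sox10 ran from 1.70 TPM in SMA+Pifithrin-alpha 3 to 14.9 TPM in SMA+Pifithrin-alpha 1, against 12.1 to 43.6 TPM in SMA. SMA+Pifithrin-alpha 3 also had the lowest motor neuron marker level of the study, a mean log2(TPM + 1) of 7.78 where the other libraries ranged from 8.16 to 8.72. The remaining members with an unadjusted p under 0.05 were Ntsr2 (-1.42), Glul (-1.04), Sox9 (-0.94), Aldh1l1 (-1.24), Olig1 (-1.15) and Cnp (-1.67).

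SMN-C3 gave lower means than vehicle in SMA for 28 of 30 members, all but Aldoc and S100b. The median log2 difference was -0.84 for astrocyte, -0.43 for precursor and -0.76 for myelin genes, beside -0.23 for all tested genes, of which 11294 of 15425 were lower. Limma called 0 of 30 members, where 0.0648% of tested genes were called. At an unadjusted p under 0.05 there were 8 lower members, 7 astrocyte genes and Fa2h, beside 7.94% of tested genes. There were 2 without SMA+SMN-C3 2, 3 without SMA 2 or SMA 3 and 14 without SMA 1. The count was 13 without both WT 1 and SMA+Pifithrin-alpha 3, and 3 without both SMA 2 and SMA+MW150 1, and after median-of-ratios scaling it was 4. With single libraries left out, the median of all tested genes ran from -0.25 (without SMA+SMN-C3 3) to -0.20 (without SMA+SMN-C3 1). Without overlap, 6 members were lower (Gfap, Aqp4, Aldh1l1, Gjb6, Fabp7 and Olig2), beside 18.2% of tested genes, a background about as large as the members' share.

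Gjb6, connexin 30, had the lowest p of the members under SMN-C3. The gene (chr14:57123303-57133611) measured 4.38, 0.849 and 3.87 TPM, against 5.67, 16.2 and 14.8 TPM in SMA. Its mean was 4.04-fold lower, with a fitted difference of -1.74 ± 0.46 (SE; limma, unadjusted p = 0.00147, adjusted p = 0.217). Aqp4 measured 59.6, 23.8 and 64.7 TPM, all below the lowest SMA value of 95.6 TPM (difference -1.47 ± 0.44, adjusted p = 0.311 by limma). Gfap measured 63.4, 17.6 and 51.0 TPM (difference -1.54). Fabp7 (-0.90), Slc1a3 (-0.85), Gja1 (-0.82), Fgfr3 (-1.35) and Fa2h (-1.45) made up the rest. The myelin genes Mbp (1008, 351.4 and 908.5 TPM) and Mobp (210.4, 47.6 and 149.6 TPM) overlapped with SMA. Their differences were -0.67 and -0.76, and their 95% intervals included 0.

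Against WT, the treated groups gave the following values. These comparisons share libraries with those above, so they are not independent of them. Under MW150, 25 of 30 members were higher than in WT, as were 11534 of 15425 tested genes, with medians of 0.54, 0.68 and 1.22 for astrocyte, precursor and myelin genes beside 0.31 for all tested genes. Limma called 0 members (0.143% of tested genes), 8 were higher at an unadjusted p under 0.05 (9.56% of tested genes), and 5 were higher without overlap (17.9% of tested genes), namely Sox9, S100b, Glul, Sox10 and Myrf. The count of 8 was 0 without SMA+MW150 3, 1 without WT 1, 4 without SMA+MW150 1, 11 without WT 2 and 12 without SMA+MW150 2. It was 3 after median-of-ratios scaling and 2 with the mitochondrial share as a covariate. The median of all tested genes was 0.19 without WT 1 and 0.41 without WT 3. Under Pifithrin-alpha the medians were -0.12, -0.48 and -0.12 beside 0.02 for all genes, with 0 members called (0.117% of tested genes). Cspg4 alone had an unadjusted p under 0.05, as a lower value (1.67% of tested genes). Without overlap, Gjb6 was higher (4.79% of tested genes) and Cldn11 lower (2.07% of tested genes). Under SMN-C3 the medians were -0.23, 0.10 and 0.26, where that of all genes was 0 to 2 decimals, with 0 members called (0.0194% of tested genes) and Fabp7 alone lower at an unadjusted p under 0.05 (5.08% of tested genes). Slc1a3, Gjb6 and Pdgfra were lower without overlap (8.82% of tested genes).

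Other genes of the same cell types were read in the same way. Of 24 other astrocyte genes, led by Cst3 (mean 3072 TPM) and Apoe (2577 TPM), all 24 were higher in SMA than in WT, with a median of 0.80. Of 20 other myelin genes, among them Sirt2 (158.7 TPM), all 20 were higher, with a median of 0.86, and of 16 other precursor genes, led by Bcan (88.8 TPM) and Lhfpl3 (26.99 TPM), 13 were, with a median of 0.52. None of these 60 genes was called by limma in any of the 7 comparisons. Of 20 genes linked to reactive astrocytes, led by S100a10 (965.0 TPM) and Serpina3n (115.6 TPM), 16 were tested and 14 were higher in SMA, with a median of 0.61 and 0 called. The mean level of those 16 had r = 0.66 with the astrocyte class, and 0.34 with group means removed. S100a10 and Serpina3n were highest in SMA 1 (1444 and 351.4 TPM), the SMA library with the lowest astrocyte class mean. In SMA 2 they measured 858.5 and 94.2 TPM. Under Pifithrin-alpha against SMA, the medians of the other astrocyte, precursor and myelin genes were -0.95, -0.60 and -1.03, and under SMN-C3 -0.71, -0.55 and -0.64. These lists were assembled with earlier results of the data known and are given as a description.

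Other cell types were read in the same libraries. Microglial genes, among them C1qb with a mean of 19.4 TPM, summed to 75.2 to 102.3 TPM in WT and 195.5 to 228.5 TPM in SMA, then to 140.4 to 200.3 TPM under MW150, 83.2 to 146.7 TPM under Pifithrin-alpha and 100.6 to 136.6 TPM under SMN-C3. All 13 that were tested had higher means in SMA than in WT. One of them, C1qc, a complement subunit, was called in SMA against WT, with a log2 difference of 1.86 ± 0.32 (SE; limma, adjusted p = 0.0144). It measured 4.28, 8.91 and 5.799 TPM in WT and 19.6, 30.2 and 25.4 TPM in SMA, and no gene of the other lists was called in any comparison. Vascular genes, led by Ly6c1 (45.3 TPM) and Cldn5 (24.2 TPM), had a median difference of -0.22 between SMA and WT, although their summed level was 88.5 to 113.2 TPM in WT and 132.0 to 186.7 TPM in SMA. Red blood cell genes, led by Hba-a1 (590.2 TPM) and Hbb-bs (377.6 TPM), had one of 0.54, with sums from 300.3 to 3548 TPM over all libraries. Interneuron genes (Slc17a6, 22.6 TPM, and Gad1, 4.28 TPM), ependymal genes (Rsph1, 6.72 TPM, and Rarres2, 2.35 TPM) and Schwann cell genes (Ncmap, 2.65 TPM, and Drp2, 2.34 TPM) were low. Their median differences between SMA and WT were 0.61 over 5 tested genes, 0.32 over 4 and 0.91 over 3. Motor neuron markers, led by Nefm (5534 TPM) and Nefl (5262 TPM), had a median difference of 0.01. The part of these cell types in the glial differences was not tested.

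**Figure D4:**
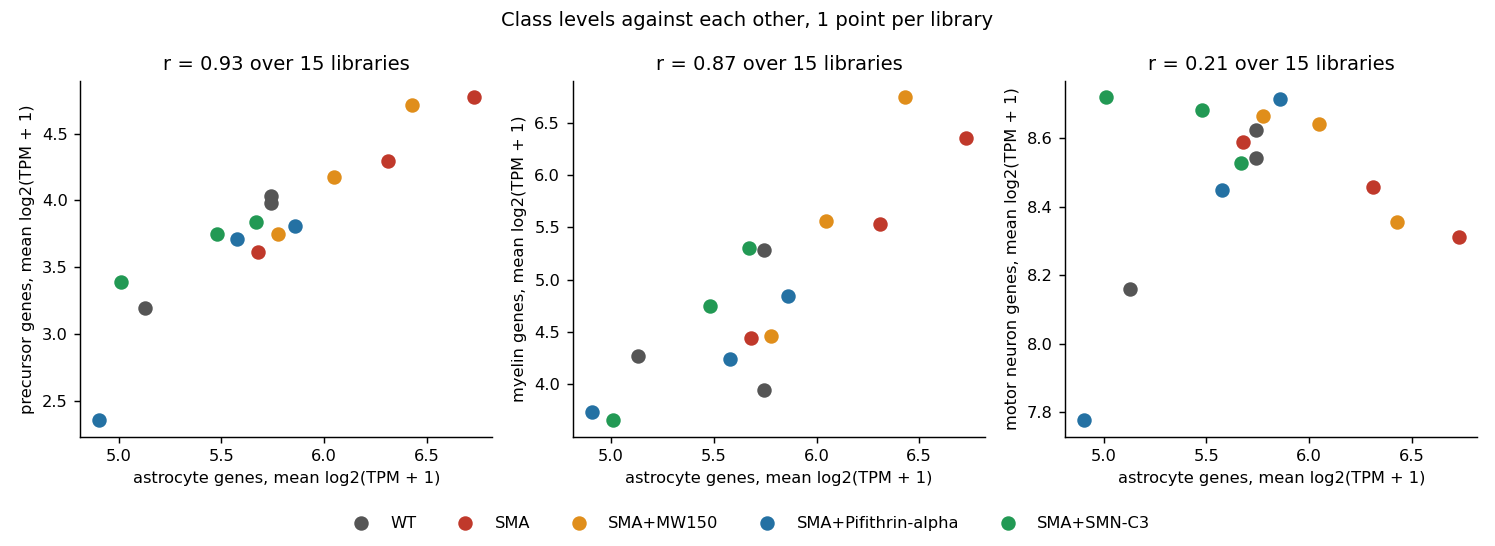
Mean log2(TPM + 1) of the astrocyte genes (horizontal axis) against that of the precursor genes, the myelin genes and 12 motor neuron markers (vertical axes), with 1 point per library coloured by group. The glial classes line up (r = 0.93 and 0.87), while the motor neuron markers do not (r = 0.21).

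The mean levels of the astrocyte, precursor and myelin classes went up and down together from library to library. Over the 15 libraries, Pearson's r between class means was 0.93 for astrocyte and precursor genes, 0.87 for astrocyte and myelin genes and 0.83 for precursor and myelin genes, and Spearman's rho was 0.91, 0.84 and 0.83. With group means removed, r was 0.96, 0.83 and 0.75, so the relation was present among replicates of the same group. Without the 2 libraries farthest from the median of the first-named class (SMA 2 and SMA+Pifithrin-alpha 3), r was 0.93, 0.82 and 0.83. The precursor genes were uneven in this. With the myelin mean, r was 0.81, 0.72 and 0.85 for Olig1, Olig2 and Sox10, which are kept through the whole lineage. It was 0.65 for Cspg4 and 0.42 for Pdgfra. With the astrocyte mean, r was 0.91, 0.83 and 0.93 for the first 3, 0.71 for Cspg4 and 0.52 for Pdgfra. These are descriptions without a test, since the members were chosen as lists, and the libraries share a protocol and a fixed TPM total. The correlation with the motor neuron markers was 0.21 for astrocyte, 0.43 for precursor and 0.03 for myelin genes. Spearman's rho was -0.01, -0.04 and -0.15, and without SMA+Pifithrin-alpha 3 alone r was -0.26, -0.22 and -0.40.

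The glial classes also followed other non-neuronal genes. Their r was 0.81, 0.82 and 0.81 with the vascular genes, 0.81, 0.75 and 0.65 with the microglial genes and 0.84, 0.74 and 0.81 with the red blood cell genes, in the order astrocyte, precursor and myelin. With the mitochondrial share r was -0.57, -0.66 and -0.36. Schwann cell genes gave 0.50, 0.46 and 0.40, and without the 2 farthest libraries 0.08, 0.00 and 0.25. The part of the mitochondrial share and of these other cell types in the relations between glial classes was not tested.

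For a test, 1 gene stood for each class: Slc1a3, Pdgfra and Mbp, as 3 pairs with p adjusted over the 3. Slc1a3 and Pdgfra were related, with r = 0.71 (permutation test with 100000 resamples, p = 0.00365, adjusted p = 0.011) and rho = 0.75 (permutation p = 0.00183, adjusted p = 0.00549). Without SMA 2 and SMA+MW150 3, the libraries farthest from the median of Slc1a3, r was 0.84. Slc1a3 and Mbp had r = 0.58 (permutation p = 0.0233, adjusted p = 0.035) but rho = 0.44 (permutation p = 0.107, adjusted p = 0.161). Without the same 2 libraries r was 0.26, so that relation rested on them. After median-of-ratios scaling r was 0.35 (permutation adjusted p = 0.306), and leaving out any 1 of 6 single libraries took the permutation adjusted p above 0.05 (0.0553 to 0.132). Pdgfra and Mbp had r = 0.37 (permutation p = 0.173, adjusted p = 0.173) and rho = 0.34 (permutation p = 0.216, adjusted p = 0.216), and without SMA 1 and SMA+Pifithrin-alpha 3 r was 0.12.

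Agreement was closest within the myelin class. Its 55 gene pairs all had a positive r, with a median of 0.81, against 0.60 for the 91 astrocyte pairs (85 positive) and 0.68 for the 10 precursor pairs. Mog and Mobp followed the mean of their class most closely (0.98 and 0.97). Cldn11 did so least, at 0.60, and among the other classes Gja1 (0.37), Pdgfra (0.47), Slc1a2 (0.49) and Aldoc (0.54) were the loosest. For each gene, the class mean in these values was taken over the other members of its class. Aldoc and S100b varied least over the libraries of all members, 2.84-fold and 2.47-fold between the lowest and the highest. They had the highest r of all members with the motor neuron markers (0.73 and 0.59), and r of -0.91 and -0.74 with the mitochondrial share.

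Genes outside the 30 that tracked each class were ranked by Pearson's r to the class mean over the 15 libraries. For astrocyte genes they included Ttyh1, 2310022B05Rik, Tmem163 and Mlc1, each with r of 0.95. For precursor genes they included Atp1b2, Metrn, Cmtm5 and S100a16, with r of 0.95 to 0.96. For myelin genes they included Trf (0.97), Gltp (0.96), Enpp2 (0.95) and Cldn14 (0.94).

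The transcript table showed which forms of the members were present. For 16 of the 30 members, 2 or more transcripts each held at least 10% of the summed level, and for the other 14 a single one did. A pair of protein-coding forms made up nearly all of Gfap: Gfap-201, with the usual last exon, held 76.7%, and Gfap-202, which ends in another last exon, held 23.3%. The share of Gfap-202 was 71.5% in WT 1, 84.4% in SMA+Pifithrin-alpha 3, 47.6% in SMA+Pifithrin-alpha 2 and 39.8% in SMA+SMN-C3 1. It lay between 6.73% and 24.2% elsewhere. Those 4 are the libraries with the highest mitochondrial share.

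**Figure D5:**
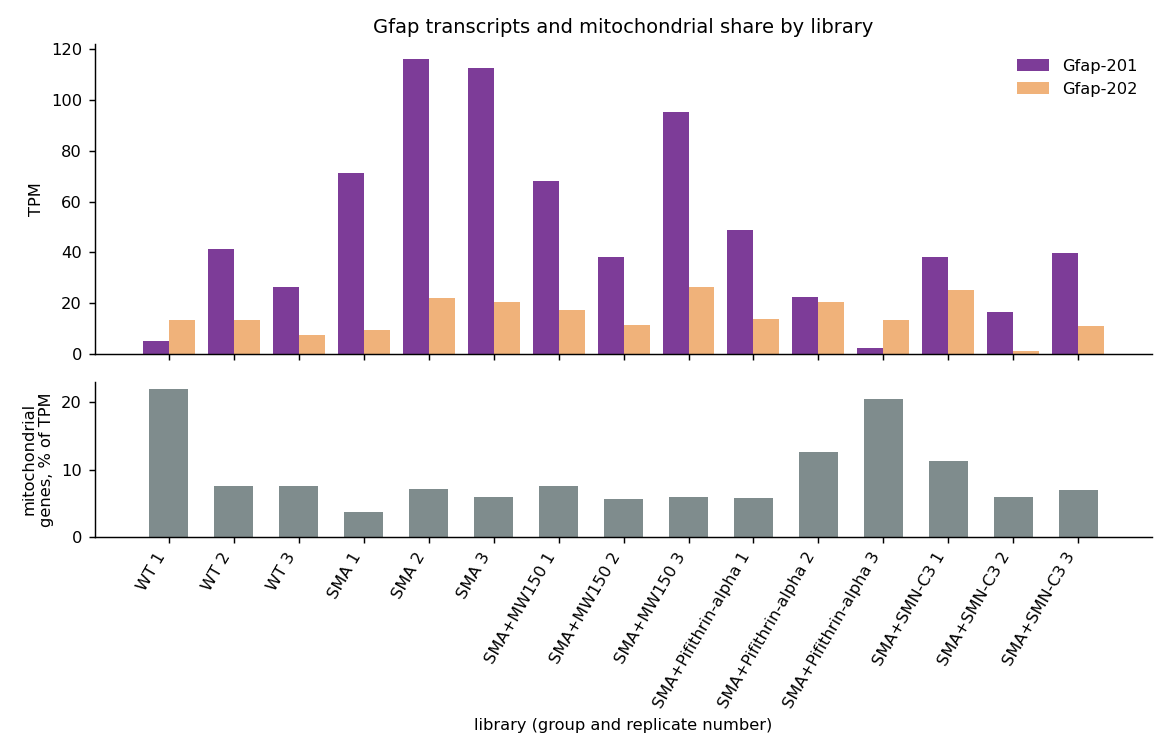
TPM of the Gfap transcripts Gfap-201 and Gfap-202 in each library (upper bars) and the share of all TPM from mitochondrially encoded genes (lower bars, percent). Gfap-201 ranges from 2.44 to 116.3 TPM, and it lies below Gfap-202 only in WT 1 and SMA+Pifithrin-alpha 3, where the mitochondrial share is above 20%.

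In level, Gfap-201 carried most of the variation. It measured 5.29, 41.5 and 26.5 TPM in WT, 71.5, 116.3 and 112.8 TPM in SMA and 48.9, 22.5 and 2.44 TPM under Pifithrin-alpha. Gfap-202 measured 13.3, 13.2 and 7.28 TPM, 9.54, 22.1 and 20.4 TPM, and 13.6, 20.6 and 13.2 TPM in the same groups, which overlapped. The bars by transcript show the same 2 libraries apart from the rest. In 3 other genes 1 form had its highest shares in the same 4 libraries: Aqp4-201 (97.0% in WT 1 and 95.7% in SMA+Pifithrin-alpha 3, down to 41.8%), Mobp-204 (70.2% and 83.4%, down to 39.7%) and Bcas1-208 (64.7% and 72.9%, down to 32.96%). The part of the mitochondrial share in these shares was not tested.

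Other forms bore on what the gene values mean. Cspg4, the proteoglycan NG2, was mostly assigned to Cspg4-204, a model with a retained intron (62.3%), and 29.2% to its coding transcript. Mobp-204, annotated as a target of nonsense-mediated decay, held 56.9% of Mobp, and Cnp-204, a processed transcript without a coding frame, 26.6% of Cnp. For Mbp, the transcripts of the upstream start, which encode the golli proteins, held 0.705% to 2.96% (median 1.70%), and the main form Mbp-211 held 57.7%. Aldoc-202 was steady at 87.5% to 89.6% of Aldoc. The 3 coding forms Glul-203, Glul-201 and Glul-202 shared Glul at 41.9%, 33.9% and 23.0%, and Mag-207, Mag-203 and Mag-201 shared Mag at 38.8%, 26.9% and 17.2%. Assignment among transcripts that share exons is an estimate, and no test was run on these shares.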

How the data were processed

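Per the labels' protocols, RNA from laser-captured motor neurons was extracted with DNase treatment, made into low-input poly(A) libraries and read as paired 100-base reads. The TPM values, for genes and for transcripts, were deposited by the authors. The submitters' processing notes name kallisto 0.44.0, DESeq2 and the builds GRCm38.p6 and mm10. The transcript index and the strand setting are not given in the sources used here. TPM keeps no read counts, so the depth behind a value is not known and no counting interval is given. All 15 libraries sum to the same total.

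Differences were tested with limma 3.58.1 (R 4.3.3, mean-variance trend, two-sided) on log2(TPM + 1). The fit used the 15425 genes at 1 TPM or more in at least 3 libraries and had 1 mean for each of 5 groups. P-values were adjusted over all tested genes within each of 7 comparisons (Benjamini-Hochberg), with 0.05 as threshold. The procedure was tested on simulated data. A fold change on this scale understates that of low genes. The labels call the 3 libraries of a group biological replicates but do not say how many animals each holds, so p-values measure the spread between these libraries. Class levels are means of log2(TPM + 1). The 2-library omissions for correlations use the median of the first-named measure. Tables were handled in Python 3.11.15 with pandas 2.3.3, numpy 2.4.6 and scipy 1.17.1.

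Coordinates and transcript types are from GENCODE M21 (GRCm38), which held 98.5% of the table's transcripts. Promoter windows are from RefSeq. By rule the text names all 30 members, Smn1 and Cdkn1a as a check of the labels, Chat and Isl1, listed genes that were called and the 2 highest of each list, the 5 genes closest to each class mean, and transcripts holding at least 10% of a member with several such. Some genes that the rule names are not reported here. The members and all gene lists were chosen with earlier results of these data known. Alternatives were another pseudocount and 2 other filters, median-of-ratios scaling, mitochondrial share as a covariate, a replicate block, fits of the compared groups alone and leaving out each library. Leaving out the pairs with Schwann cell genes or with the highest mitochondrial share was chosen after seeing the data.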

Additional observations from a re-analysis of the deposited data

How the results depend on the processing

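No member was called by limma in any of the 7 comparisons under any alternative. Signs of member differences were less stable. Leaving out single libraries changed the sign in 146 of 1260 refitted differences, leaving out the pair with the highest mitochondrial share in 24 of 210 and the pair with Schwann cell genes in 22 of 210. The 27 differences with an unadjusted p under 0.05 in SMA against WT and in treated groups against SMA, which were chosen for their size, changed sign in 0 of 404 refits. Some of these refits could not change a sign. The 2 other filters do not alter a difference. Nor do the fits of the compared groups alone or, with replicates 1, 2 and 3 in each group, the replicate block. The lowest adjusted p of a member was 0.0699 (Gjb6, SMN-C3 against SMA, without WT 1 and SMA+Pifithrin-alpha 3). Median-of-ratios scaling changed the sign of 9 of 210 member differences, and the mitochondrial covariate of 17. The precursor median in SMA against WT was 0.23 with mitochondrial share as a covariate, in place of 0.80. That of all tested genes was 0.02, in place of 0.24. With single libraries left out, the precursor median under Pifithrin-alpha against WT ran from -0.73 to 0.20, the latter without SMA+Pifithrin-alpha 3. After median-of-ratios scaling the astrocyte and precursor levels had r = 0.82, and Slc1a3 and Mbp r = 0.35 (permutation adjusted p = 0.306). With single libraries left out, r of Slc1a3 and Mbp ran from 0.47 to 0.65, and its permutation adjusted p was above 0.05 without SMA 1, SMA 2, SMA 3, SMA+MW150 1, SMA+MW150 3 or SMA+SMN-C3 2. A replicate block cannot move a median where each group holds replicates 1, 2 and 3. Limma with that block called 0 members (lowest adjusted p = 0.301). For SMN-C3 against SMA it gave 5 in place of 8 members at an unadjusted p under 0.05. Libraries of the same number in different groups deviated together in 4 of 30 pairs (r over 0.1, range -0.34 to 0.29). Those of different numbers did so in 16 of 60 pairs. No pairing by number was seen, but correlations around means of 3 libraries cannot exclude one. TPM without counts limits what can be said of genes near 1 TPM, such as Myrf.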
